A study of Mus musculus with 4 samples.

Results

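The genes of the 26S proteasome and its activators were followed in RNA-sequencing libraries of mouse spermatocyte suspensions, in 2 control libraries and 2 libraries with Np95 knocked out. The members were chosen by symbol: the Psma, Psmb, Psmc and Psmd genes with a number, Psme1 to Psme4, Psmf1 and the numbered Psmg genes, without the immunoproteasome genes Psmb8 and Psmb9. This gave 46 of 24388 gene symbols in the table, and 40 of them were tested. Both groups carry the strain label C57BL/6 and the age label 21 dpc, an abbreviation that is not spelled out. The labels name the genotypes only as control and Np95 knock out, while the column headers of the table write cKO for the knockout. The sources used here do not give the deleted part, the way it was deleted or the number of animals. The p-values therefore cover the variation among these 4 libraries, which could be technical.

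The proteasome is the barrel-shaped protease that degrades proteins marked with ubiquitin. Its 20S core has outer rings of alpha subunits (Psma genes) and inner rings of beta subunits (Psmb genes), of which a few carry the protease sites. The 19S particle caps the core: its ATPases (Psmc genes) unfold substrates, and its non-ATPase subunits (Psmd genes) bind and remove ubiquitin. Other caps are the PA28 activators (Psme1, Psme2 and Psme3) and PA200 (Psme4). In the testis, Psma8 can take the place of Psma7 in the core from the spermatocyte stage on, and PA200 is abundant and promotes the degradation of acetylated histones in spermatids.

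Values are RPKM, reads scaled to gene length and library depth. The deposited values behave as reads divided by the whole gene span, introns included, so a level can be compared between libraries but not between genes as deposited. The smallest steps in the values correspond to 11620000 and 25510000 reads in control replicates 1 and 2, and to 22160000 and 9600000 in knockout replicates 1 and 2. Group values are means ± SD over 2 libraries, and log2 fold changes are knockout minus control on log2(RPKM + 1), with adjusted p-values from limma. Folds are ratios of mean RPKM. The added 1 makes a log2 fold change smaller in size than the log2 of that ratio, most for genes at low RPKM. Uhrf1, the gene of Np95, had 3.11 and 3.29 RPKM in control replicates 1 and 2 against 1.87 and 1.48 in the knockout replicates (limma adjusted p = 0.0031).

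Markers of other cell types moved with the genotype. All 12 tested Sertoli cell markers were higher in the knockout, with summed RPKM of 115 to 137 in the control and 353 to 447 in the knockout libraries over the 13 listed. The same held for 4 of 5 tested Leydig cell markers (sums of 17.3 to 17.8 against 46.9 to 56.1), 3 of 3 macrophage markers (2.28 to 3.54 against 6.48 to 9.10) and 8 of 8 dissociation and stress genes (12.1 to 15.5 against 44.4 to 63.7). The 4 peritubular markers were below the filter, with sums of 0.596 to 0.656 against 1.51 to 1.89. Of 11 spermatocyte markers 8 were lower and 2 higher, with sums of 1220 to 1239 against 476 to 595, and all 4 tested spermatogonial markers were higher. Both tested spermatid markers were lower, with sums of 9.08 to 9.76 against 2.32 to 4.47. Wt1 and Gata4 (Sertoli), Cyp11a1 (Leydig), Cd68 and C1qb (macrophage), Dmrt1 (spermatogonia) and Fos and Dusp1 (stress) were below 1 RPKM in both control libraries. They passed the filter of 1 RPKM only through the knockout, which favours a higher call. Over all 9099 tested genes 43.3% were higher and 30.5% lower. No listed marker was at 0 in every library. The part of these shifts in the results below was not tested, and in bulk RNA fewer cells of a type and less RNA per cell cannot be told apart.

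Proteasome genes moved both ways. Of the 40 tested members, 10 rose and 13 fell in the knockout and 17 were not called. The called share was 57.5%, against a background of 73.8% of 9099 tested genes. In the background 43.3% of genes were higher and 30.5% lower, against 25.0% and 32.5% of the tested members. Control and knockout values were fully separate for 34 of 40 members (85.0%), where the background was 89.9%. The median log2 fold change was -0.10 over tested members and 0.14 over all tested genes. Among genes at 5 RPKM or more in at least 2 libraries, 3 of 22 members rose and 9 fell. There the background was 78.1% called, 31.1% higher and 47.0% lower, and the medians were -0.14 for the members and -0.22 for all genes. Of these rises Psme1 reached 5 RPKM only in the knockout libraries. Of the falls Psma8 and Psmg1 reached it only in the control libraries. The members below the main filter of 1 RPKM were Psma3, Psma5, Psmb11, Psmd11, Psmd14 and Psmg4. Psmd10 and Psme2 were below 1 RPKM in both control libraries and so reached the filter only because of the knockout libraries.

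The balance of higher and lower calls depended on how the libraries were scaled to each other. With an equal RPKM sum 21 members were higher and 5 lower, against a background of 78.3% called, 60.5% higher and 17.8% lower. The member median turned to 0.26 there, with 0.46 over all tested genes. With an equal median 5 were higher and 21 lower, against 72.3% called, 33.5% higher and 38.9% lower. With quantile normalization the counts were 8 and 14, against 68.1% called, 34.7% higher and 33.4% lower. The same scalings moved the share of higher calls among all called genes from 58.7% as deposited to 77.3%, 46.3% and 50.9%. Some members not called as deposited were called under another scaling, and Psma4, Psmb4, Psmd6 and Psmd13 in either direction. Without control replicate 1 there were 4 higher and 8 lower members, and without control replicate 2 there were 7 and 6. Under each of 13 alternatives other than the filter at 5 RPKM, these scalings and each left-out library among them, 8 members kept their call and direction. Psma7, Psmd10, Psmd5 and Psme1 were higher, and Psma8, Psmb5, Psmc2 and Psmc3 were lower.

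**Figure D1:**
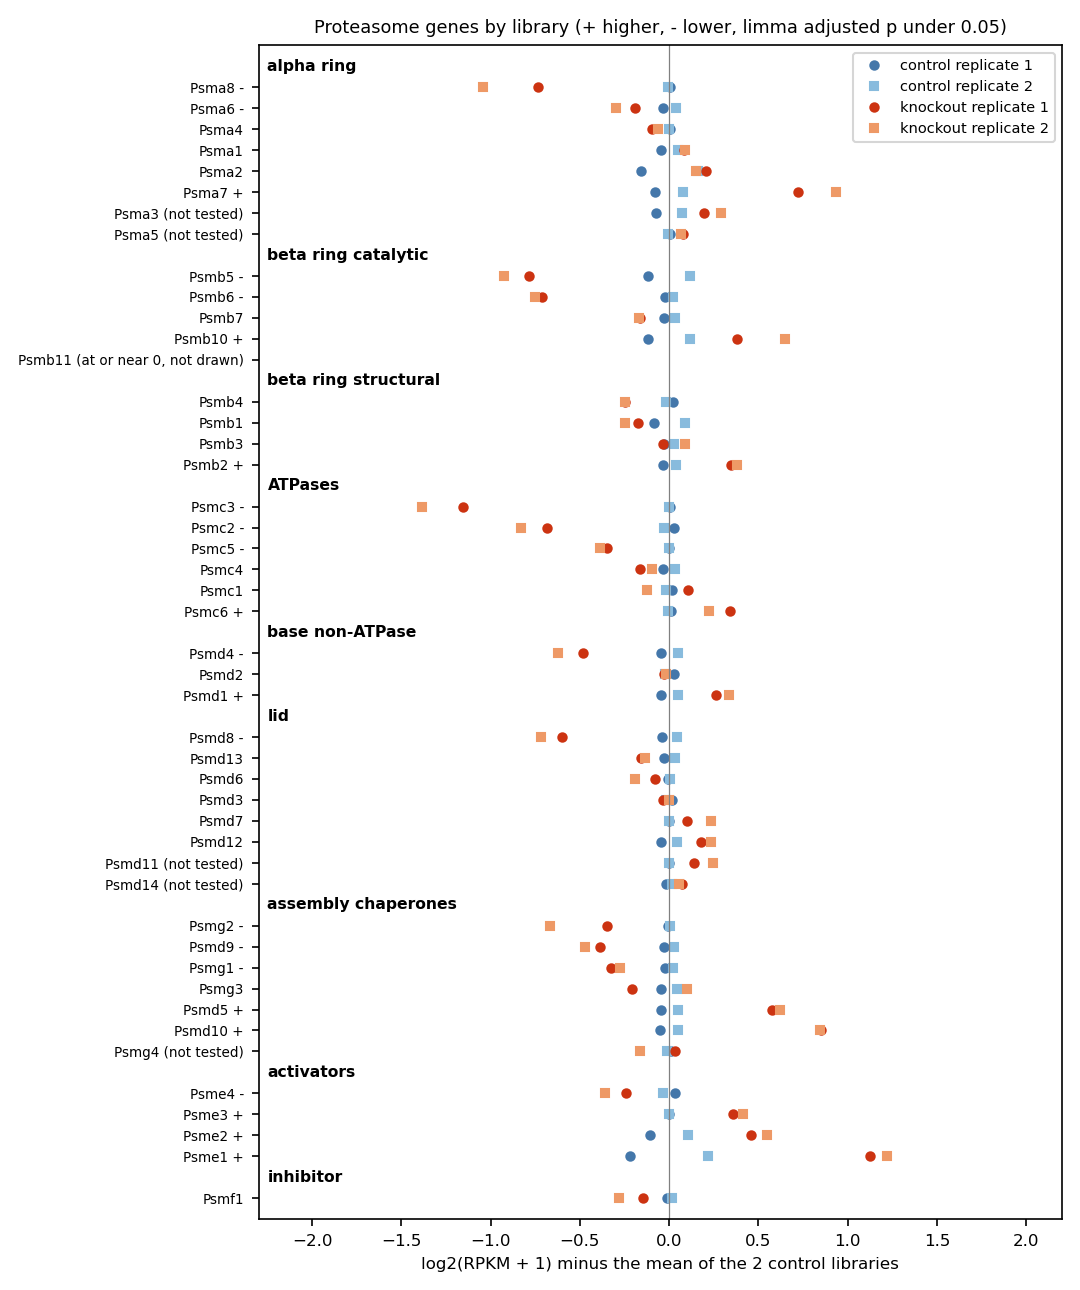
Each point is 1 library, drawn as log2(RPKM + 1) minus the mean of the 2 control libraries, for the members ordered by role; + and - mark members called higher or lower by limma. Psma8, Psmb5, Psmb6, Psmc2 and Psmc3 lie to the left in both knockout libraries, and Psma7, Psmd10 and Psme1 to the right.

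The testis form of the core and its general counterpart moved in opposite directions. Psma8, the germ cell subunit, had 7.05 and 6.996 RPKM in control replicates 1 and 2 and 3.82 and 2.89 in knockout replicates 1 and 2. Both knockout libraries lay below both controls, with no overlap. The mean fell 2.09-fold, from 7.02 ± 0.0355 to 3.36 ± 0.658 RPKM (SD, n = 2). The log2 fold change was -0.89 (SE 0.12, limma adjusted p = 0.0025). Psma7, the subunit that Psma8 can replace, had 8.35 and 9.44 RPKM in the control replicates and 15.3 and 17.9 in the knockout replicates. Both knockout libraries lay above both controls. Its mean rose from 8.89 ± 0.776 to 16.6 ± 1.82 RPKM, 1.86-fold, or 0.83 on the log2 scale (SE 0.12, limma adjusted p = 0.0027). Over the 4 scalings the log2 fold change ran from -1.08 to -0.55 for Psma8 and from 0.64 to 1.21 for Psma7.

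The RPKM ratio of the pair within a library does not depend on a factor that scales the whole library. The RPKM of Psma8 was 0.844 and 0.741 times that of Psma7 in control replicates 1 and 2, and 0.250 and 0.162 times in knockout replicates 1 and 2. The log2 ratio of RPKM + 1 went from -0.22 and -0.39 in the control to -1.76 and -2.28 in the knockout, a difference of -1.72. An exact permutation test of 2 libraries against 2 gave p = 0.333, the smallest p this design allows, so the ratio is given as values. Rescaled from gene span to exon length, Psma8 had the higher level of the pair in each library. By that scale it made up 84.4% and 82.6% of the pair in the control libraries and 61.6% and 50.9% in the knockout libraries. The exon lengths are those of another annotation and build than the authors', and reads from introns were not separated, so these shares are approximate.

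**Figure D2:**
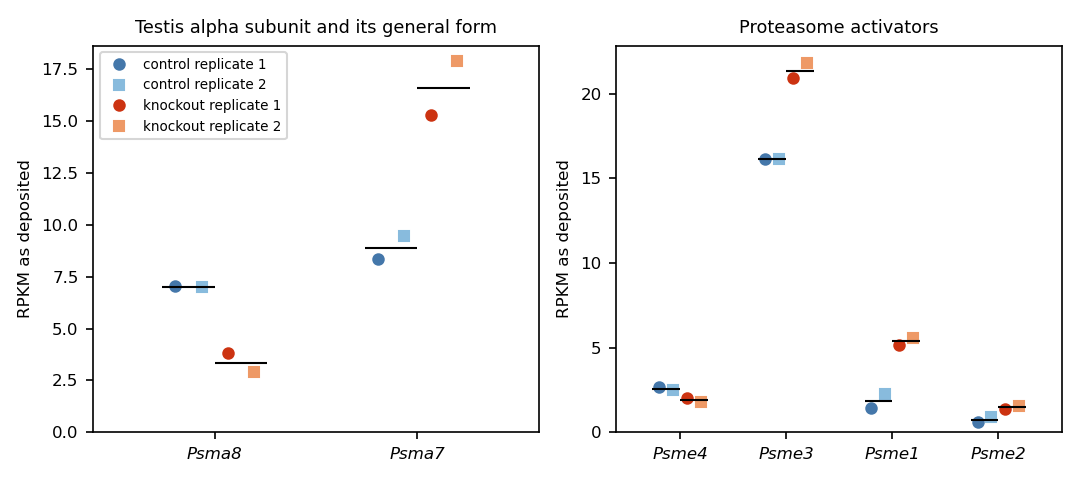
RPKM as deposited in each library for Psma8 with Psma7 (left) and for the 4 activators (right), with a bar at the mean of 2 libraries. Psma8 and Psme4 lie lower in the knockout libraries, and Psma7, Psme3, Psme1 and Psme2 higher; heights of different genes are not comparable as deposited.

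The other alpha subunits were closer between the groups. Psma6 fell from 4.37 ± 0.196 to 3.53 ± 0.227 RPKM (SD, n = 2), a log2 fold change of -0.24 (limma adjusted p = 0.045). That call ended without the filter on low values (adjusted p = 0.054), without either control library and without knockout replicate 2, and the direction turned with an equal RPKM sum (0.09). Psma1, Psma2 and Psma4 were not called, with log2 fold changes between -0.08 and 0.18. Psma2 had 0.886 RPKM in control replicate 1 and 1.34 to 1.43 in the other libraries, and its groups overlapped. Psma3 and Psma5 were below the filter, with 0.660 to 1.13 and 0.425 to 0.509 RPKM over the 4 libraries, and neither was tested.

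The catalytic beta subunits of the general core were lower or not called. Psmb5, which carries the chymotrypsin-like site, had 16.8 and 19.96 RPKM in the control replicates and 10.2 and 9.17 in the knockout replicates. It fell 1.89-fold, or -0.85 on the log2 scale (SE 0.12, limma adjusted p = 0.0026). Psmb6, with the caspase-like site, had 42.2 and 43.6 RPKM in the control replicates and 25.8 and 25.0 in the knockout replicates. For both genes each knockout library lay below each control. Psmb6 fell 1.69-fold, or -0.73 on the log2 scale (SE 0.10, limma adjusted p = 0.0022). With quantile normalization its log2 fold change was -0.22 and the call ended. Psmb7, with the trypsin-like site, had 1.995 and 2.13 RPKM against 1.74 and 1.73, a log2 fold change of -0.16 that was not called (limma adjusted p = 0.091).

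The catalytic subunits best known from other tissues rested on few reads. Psmb10, the interferon-induced subunit that replaces Psmb7, had 1.80 and 2.30 RPKM in control replicates 1 and 2 and 2.95 and 3.75 in the knockout replicates. These values rest on about 56 and 156 reads in the control libraries and 174 and 96 in the knockout libraries. It rose 1.64-fold, or 0.51 on the log2 scale (SE 0.13, limma adjusted p = 0.019), and the groups did not overlap. The call ended without control replicate 1 (adjusted p = 0.094) and without knockout replicate 2 (0.068), and with an equal median (0.067), quantile normalization (0.091) and no filter on low values (0.052). The log2 ratio of Psmb10 to Psmb7 was 0.68 higher in the knockout (exact permutation p = 0.333, the smallest possible). Psmb11, the subunit of the thymus, was listed at 0 in 3 libraries and at 0.0366 RPKM, about 4 reads, in control replicate 2. Of the structural beta subunits, Psmb2 rose from 1.69 ± 0.0937 to 2.46 ± 0.0648 RPKM (SD, n = 2), 1.45-fold (log2 fold change 0.36, limma adjusted p = 0.0082). The call of Psmb2 ended with an equal median, with quantile normalization and without control replicate 1. Psmb1, Psmb3 and Psmb4 were not called. Psmb4 had 89.4 and 87.0 RPKM in the control and 74.3 in each knockout library, which did not overlap (limma adjusted p = 0.097). It was called lower with an equal median (log2 fold change -0.44, limma adjusted p = 0.021) and higher with quantile normalization (0.63, adjusted p = 0.0074).

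Promoters were read for the motif TGACNNNGC, the core of the antioxidant response element through which the factor NFE2L1 is known to raise proteasome genes. RefSeq promoters of build GRCm38.p6, 250 bases before to 50 after the start, were matched for 38 of the 46 members. The motif stood on either strand in 6 of the 38 (15.8%), against 14.0% of 27025 genes with a promoter in the table. The windows of the 5 members with the motif before the start are shown because they include both catalytic subunits that fell. In Psmb6 the motif runs up to the start. A stretch after that start was not found in the longest GENCODE coding transcript of Psmb6, so the place of its motif is uncertain. The capitals mark the motif, which Psmc6 and Psmd12 hold as its reverse complement.
Psmb5: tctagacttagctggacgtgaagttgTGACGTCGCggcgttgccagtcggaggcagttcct
Psmb6: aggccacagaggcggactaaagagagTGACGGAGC
Psmd9: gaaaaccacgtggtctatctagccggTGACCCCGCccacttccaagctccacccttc
Psmc6: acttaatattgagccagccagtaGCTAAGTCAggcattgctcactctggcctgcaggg
Psmd12: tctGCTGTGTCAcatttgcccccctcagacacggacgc
In GRCm38.p6 these are chr14:54618008-54618068 on the minus strand for Psmb5, and on the plus strand chr11:70525322-70525356 for Psmb6, chr5:123228133-123228189 for Psmd9, chr14:45329574-45329631 for Psmc6 and chr11:107479278-107479315 for Psmd12. Psmb5, Psmb6 and Psmd9 fell, Psmc6 rose and Psmd12 was not called, so genes with the motif went both ways. The remaining match, in Psme4, is not wholly before the start. The MYB core was searched as AACNGC, found in 39.5% of members and 39.2% of genes, and as AACNGT, in 21.1% and 28.9%. The NF-Y box CCAAT was in 34.2% and 41.1%, and the full cyclic AMP element TGACGTCA in 0 of 38 members and 2.03% of genes. A match is a run of letters and not a measured site.

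Among the ATPases of the 19S base, 3 of 6 fell and 1 rose (66.7% called, against the background of 73.8%). Psmc3, an ATPase of the base, had 123.4 and 123.0 RPKM in control replicates 1 and 2 and 54.9 and 46.6 in the knockout replicates. It fell 2.43-fold, or -1.27 on the log2 scale (SE 0.13, limma adjusted p = 0.0015), the largest fall of the tested members as deposited. With quantile normalization its log2 fold change was -0.46 and it was still called. Psmc2 had 12.1 and 11.6 RPKM in the control replicates and 7.002 and 6.23 in the knockout replicates, 1.79-fold lower (log2 fold change -0.76, SE 0.09, limma adjusted p = 0.0019). For both ATPases the groups were far apart relative to the gap between replicates. Psmc5 fell 1.31-fold (log2 fold change -0.37, limma adjusted p = 0.013), a call that ended without either control library and with quantile normalization, and that turned to 0.02 with an equal RPKM sum. Psmc6 rose 1.28-fold (log2 fold change 0.28, limma adjusted p = 0.027), a call that ended without either control library, without knockout replicate 1 and with 2 of the 3 other scalings. Psmc1 and Psmc4 were not called.

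By exon length the ATPases were closer to each other in the knockout. On that scale Psmc3 had 327 and 326 per kb of exon in the control libraries and 146 and 124 in the knockout libraries. The other 5 ATPases lay between 27.3 and 126 in the control and between 24.7 and 72.6 in the knockout. Over the 17 subunits of the 19S particle the SD of log2 levels per kb of exon was 1.17 and 1.16 in the control libraries and 0.826 and 0.787 in the knockout libraries. Over the 14 general subunits of the core it was 1.83 and 1.73 in the control and 1.58 and 1.57 in the knockout. This spread was not computed over all genes, so whether its fall is particular to the proteasome was not tested. The median log2 fold change was 0.14 over all tested genes and -0.22 over all those at 5 RPKM or more in at least 2 libraries. Psma8 was above every other core subunit on this scale in both control libraries, with 234 and 232 per kb of exon, and Psmb4 followed with 199 and 194. In the knockout libraries Psmb4 was the highest, with 165 in each, and Psma8 had 127 and 95.9. Levels of different genes on this scale are approximate, and reads shared with copies elsewhere in the genome were not separated. Psmc1, the lowest ATPase in each library, has a pseudogene copy at 97.1% identity. Psmb5, with a copy at 98.9% identity, had 72.4 and 86.0 per kb of exon in the control libraries. The part of such copies in these levels was not tested.

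**Figure D3:**
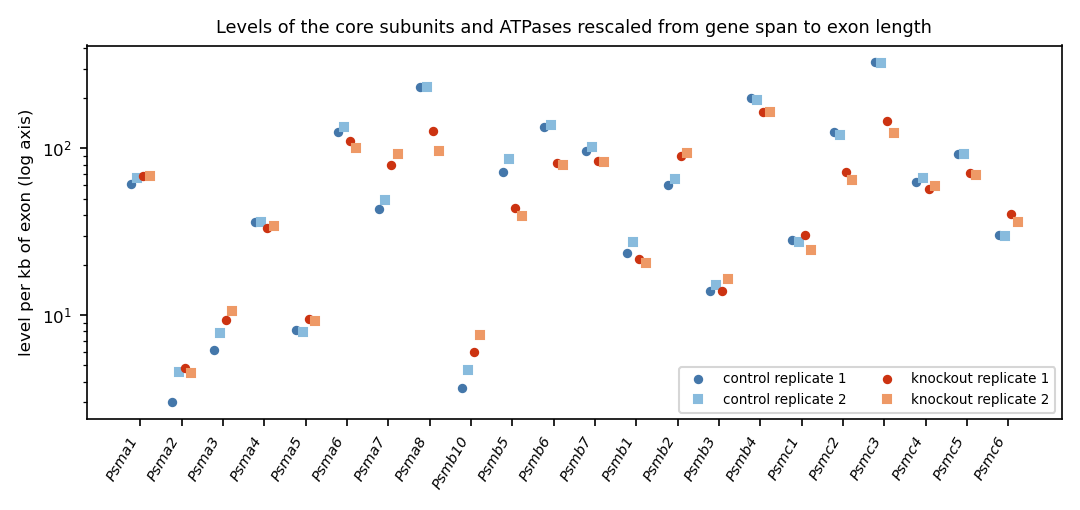
Level per kilobase of exon on a log axis, in each library, for the core subunits without Psmb11 and for the ATPases. Psmc3 and Psma8 stand highest in the control libraries, at 326 to 327 and 232 to 234, and lower in the knockout libraries.

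Of the 3 non-ATPase subunits of the base, 1 fell, 1 rose and 1 was not called. Psmd4, a receptor for ubiquitin chains, had 16.9 and 18.2 RPKM in the control replicates and 12.3 and 11.04 in the knockout replicates. It fell 1.51-fold (log2 fold change -0.55, SE 0.10, limma adjusted p = 0.0056), and the call was lost when RPKM sums were made equal (adjusted p = 0.16) and without control replicate 2 (0.055). Psmd1, a scaffold of the base, rose from 1.84 ± 0.131 to 2.49 ± 0.126 RPKM (SD, n = 2), 1.36-fold (log2 fold change 0.30, limma adjusted p = 0.020). The call of Psmd1 ended without either control library, without knockout replicate 2, and with an equal median or quantile normalization. Psmd2, the other scaffold, had 21.1 to 21.9 RPKM in all 4 libraries, and its groups overlapped. It was called higher with an equal RPKM sum (limma adjusted p = 0.014) and with quantile normalization (0.019).

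In the lid, 1 of 6 tested subunits was called, against the background of 73.8%. Psmd8 had 43.0 and 45.6 RPKM in the control replicates and 28.9 and 26.5 in the knockout replicates, all below the controls. It fell 1.60-fold (log2 fold change -0.66, SE 0.11, limma adjusted p = 0.0039), and the call was lost when RPKM sums were made equal (adjusted p = 0.055) and with quantile normalization (0.34). Psmd3, Psmd6, Psmd7, Psmd12 and Psmd13 had log2 fold changes between -0.15 and 0.21 and were not called. With an equal RPKM sum each of them was called higher (limma adjusted p from 0.0027 to 0.0496), where 60.5% of all tested genes were higher. With an equal median Psmd6 and Psmd13 were called lower (0.032 and 0.021), and with quantile normalization Psmd7 was called higher (0.024). Psmd14, the deubiquitinase of the lid, was below the filter with 0.607 and 0.647 RPKM in the control and 0.711 and 0.690 in the knockout. Psmd11 was also below it, with 0.616 RPKM in each control library and 0.783 and 0.916 in the knockout.

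Assembly chaperones, which help build the particles and are not part of the finished proteasome, were called in 5 of 6 tested cases (83.3%, against the background of 73.8% called). Psmd10, which guides the base ATPases and is the only X-linked member, had 0.782 and 0.907 RPKM in control replicates 1 and 2 and 2.33 and 2.31 in the knockout replicates. It rose 2.75-fold, or 0.85 on the log2 scale (SE 0.08, limma adjusted p = 0.0014), and the groups were far apart. Psmd10 is in the count above only because the knockout libraries lifted it over the filter. Its values rest on about 75 and 192 reads in the control libraries and 427 and 184 in the knockout libraries. Psmd5, another chaperone of the base, had 1.41 and 1.58 RPKM in the control replicates and 2.71 and 2.83 in the knockout replicates. It rose 1.86-fold, or 0.60 on the log2 scale (SE 0.08, limma adjusted p = 0.0020). Over the 4 scalings the log2 fold change of Psmd10 ran from 0.58 to 1.09 and that of Psmd5 from 0.37 to 0.88.

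The third chaperone of the base went the other way. Psmd9 had 2.54 and 2.68 RPKM in the control replicates and 1.75 and 1.60 in the knockout replicates, 1.55-fold lower (log2 fold change -0.43, SE 0.08, limma adjusted p = 0.0051). Psmg1 and Psmg2, which form a dimer that helps assemble the alpha ring, fell together. Psmg1 fell from 6.09 ± 0.150 to 4.76 ± 0.149 RPKM (SD, n = 2; limma adjusted p = 0.019). Psmg2 had 4.95 and 4.99 RPKM in the control and 3.69 and 2.75 in the knockout (log2 fold change -0.51, limma adjusted p = 0.016). The calls of Psmg1 and Psmg2 ended without either control library, and that of Psmd9 without control replicate 2 (adjusted p = 0.051). With an equal RPKM sum none of the 3 was called, and Psmg1 turned to 0.05. Psmg3 was not called, with 3.98 and 5.16 RPKM in the knockout libraries on either side of the controls. Psmg4 had 0.620 to 0.859 RPKM over the 4 libraries and was not tested.

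The 4 activators were called, 3 higher and 1 lower, against a background of 73.8% called, 43.3% higher and 30.5% lower. The PA28 genes were higher and PA200 lower as deposited, with Psme2 passing the filter through the knockout only. Psme1, the PA28 alpha subunit, had 1.43 and 2.29 RPKM in control replicates 1 and 2 and 5.16 and 5.59 in the knockout replicates. It rose 2.89-fold, or 1.17 on the log2 scale (SE 0.16, limma adjusted p = 0.0023), the largest rise of the members. The reads behind it were few, about 51 and 177 in the control libraries and 347 and 163 in the knockout libraries. Psme2, the PA28 beta subunit, had 0.626 and 0.887 RPKM against 1.41 and 1.56, a difference of 0.50 on the log2 scale (SE 0.10, limma adjusted p = 0.0074). Both knockout libraries lay above both controls for each gene. The call of Psme2 ended with quantile normalization (adjusted p = 0.085) and without control replicate 1 (0.057).

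Reads of Psme2 may be shared with a near-identical gene, so its value is uncertain. Its transcript is 99.4% identical over 794 bases to that of Psme2b, a gene of its own row that is not a member. Psme2b had 17.5 and 16.8 RPKM in the control replicates and 35.3 and 38.5 in the knockout replicates, also higher (log2 fold change 1.06, limma adjusted p = 0.0014). Psme1 and Psme2 encode the interferon-induced PA28 subunits, and Psmb10 is interferon-induced as well. The macrophage and Sertoli cell marker sums were higher in the same knockout libraries, and their part in these values was not tested.

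Psme3, the nuclear PA28 gamma, had 16.1 RPKM in each control library and 20.9 and 21.8 in the knockout replicates, 1.32-fold higher (log2 fold change 0.38, SE 0.09, limma adjusted p = 0.013). The call ended without either control library (adjusted p = 0.12 each) and with an equal median (0.11). Psme4, which encodes PA200, had 2.67 and 2.50 RPKM in the control replicates and 2.03 and 1.79 in the knockout replicates. The groups did not overlap, but the difference was smaller than that of Psma8. The mean fell from 2.59 ± 0.120 to 1.91 ± 0.168 RPKM (SD, n = 2), 1.35-fold, or -0.30 on the log2 scale (SE 0.08, limma adjusted p = 0.022). That call ended without control replicate 1 (adjusted p = 0.15), without control replicate 2 (0.088) and without knockout replicate 2 (0.056). With an equal RPKM sum the log2 fold change of Psme4 was -0.02 (adjusted p = 0.87).

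Within a library, the RPKM of Psme4 was 0.166 and 0.155 times that of Psme3 in the control replicates and 0.0970 and 0.0823 times in the knockout replicates. Its RPKM was 1.87 and 1.09 times that of Psme1 in the control and 0.394 and 0.320 times in the knockout. Both ratios were lower in each knockout library than in each control. The log2 ratio of RPKM + 1 moved by -0.69 against Psme3 and by -1.47 against Psme1 (exact permutation p = 0.333 for each, the smallest possible, over 4 ratios compared). Erlec1 overlaps 16.8% of the span of Psme4, and reads of overlapping genes cannot be told apart with a kit that does not mark strand. Erlec1 had 2.60 and 2.55 RPKM in the control and 2.29 and 2.06 in the knockout. Psmf1, the inhibitor PI31, was not called, with 2.36 and 2.42 RPKM against 2.07 and 1.79 (limma adjusted p = 0.065).

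Other genes of the ubiquitin and proteasome pathway were taken from a list of 45 symbols, of which 41 were in the table and 40 were tested. Of these 21 rose, 9 fell and 10 were not called (52.5% and 22.5%, against the background of 43.3% and 30.5%), with a median log2 fold change of 0.23. The rises include Uba1y, Uba6, Nfe2l2, Ddi2 and AI314180, which were below 1 RPKM in both controls and passed the filter only through the knockout. Without control replicate 1 there were 13 higher and 2 lower, without control replicate 2 there were 15 and 2, and with an equal RPKM sum 27 and 2. The enzymes that activate ubiquitin led the rises. Uba1, X-linked and the main one, had 1.49 and 1.67 RPKM in the control and 6.32 and 7.47 in the knockout (log2 fold change 1.61). Its Y-linked relative Uba1y had 0.502 and 0.596 against 2.22 and 2.18 RPKM (1.05), and Uba6, an alternative activating enzyme, 0.601 and 0.565 against 2.23 and 2.65 (1.12). Uba1y and Uba6 were below 1 RPKM in both controls and passed the filter through the knockout. Ubqln2, a shuttle that carries ubiquitinated proteins to the proteasome, rose from 4.26 ± 0.874 to 26.7 ± 4.75 RPKM (SD, n = 2). The limma adjusted p of these 4 genes was 0.0014 for each.

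Among the genes that fell, the ubiquitin gene Ubb had 1802 and 1803 RPKM in the control and 1033 and 874 in the knockout, while the ubiquitin fusion gene Rps27a fell 1.54-fold. Akirin2, a carrier that brings proteasomes into the nucleus, fell 1.38-fold (limma adjusted p = 0.0083). Nfe2l1, Ddi2, Nfe2l2 and AI314180 fall outside the naming rule and were named after their values were seen. Nfe2l1, which encodes the factor of the motif above, had 5.63 and 5.30 RPKM in the control and 11.6 and 13.5 in the knockout (log2 fold change 1.06, limma adjusted p = 0.0014). Ddi2, its protease, had 0.508 and 0.493 RPKM in the control and 1.29 and 1.53 in the knockout, and it too passed the filter through the knockout only. Nfe2l2 had 0.511 and 0.593 RPKM in the control and 1.78 and 2.04 in the knockout (log2 fold change 0.91, limma adjusted p = 0.0014). A link of Nfe2l1, Ddi2 or Nfe2l2 to the motif or to the members was not tested. Ubb was not called without the filter, without either control library or with quantile normalization, where its log2 fold change was 0.00. The calls of Akirin2 and Rps27a ended with an equal RPKM sum, that of Rps27a also with quantile normalization, and that of Akirin2 without either control library.

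**Figure D4:**
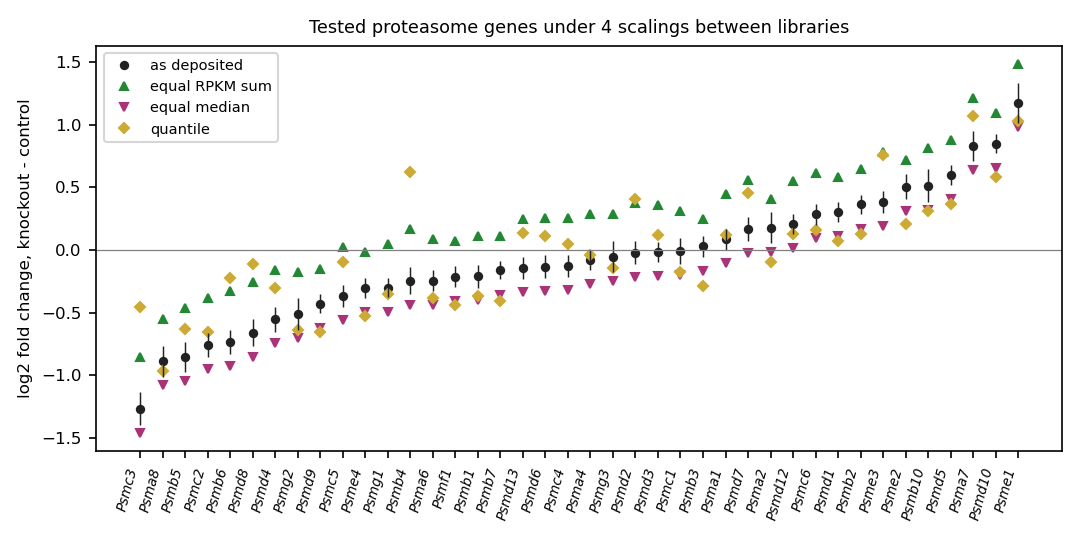
Log2 fold change of each tested member, knockout minus control, as deposited (black, with the limma SE) and under 3 other scalings between libraries, ordered by the deposited value. Members at the ends, such as Psma8 (-1.08 to -0.55) and Psme1 (0.98 to 1.48), keep their sign under all 4, while most in the middle do not.

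Several members share sequence with copies elsewhere in the genome. In the GENCODE transcripts of build GRCm38, Psma3, Psma5, Psmb3, Psmb5, Psmc1 and Psmd11 each have a pseudogene transcript at 97% identity or more over at least 300 bases. For Psmb5 it is Gm3375, 98.9% identical over 796 bases, and for Psma5 it is Gm8394, 98.6% over 952 bases. None of these pseudogenes has a row in the table, and the sources used here do not say how reads with several places were counted. The microRNA row Mir686, with 98.3 and 125 RPKM in the control and 63.6 and 56.3 in the knockout, overlaps Psmb5, and reads of the pair cannot be told apart. Atg4a overlaps 34.6% of Psmd10 but had 0.0128 to 0.0808 RPKM over the 4 libraries.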

How the data were processed

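RPKM values for 2 control and 2 knockout libraries were deposited by the authors in 1 table of 24444 rows. Per the submitters' processing notes, Bowtie2 and build mm9 were used. The sources used here do not name the counting program or its annotation. Bowtie2 does not split reads over introns, which can lower genes of short exons and favour intronless copies if reads were placed on the genome. Per the labels' protocols, suspensions were unsorted and poly(A) RNA was sequenced as 50-bp pairs. Multiplied by gene span, 62.8% to 64.8% of low values (0.5 to 5.5 steps) per library lay within 0.05 of a whole step, against at most 11.0% to 11.8% by exon length. Whole reads were not recovered for the rest, so no count test was run.

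Rows with a date for a symbol (27) and, of repeated symbols, the rows with the lower mean (29) were left out. Genes at 1 RPKM or more in at least 2 libraries (9099) were tested on log2(RPKM + 1) by limma 3.58.1 (R 4.3.3) with a mean-variance trend, two-sided, Benjamini-Hochberg adjusted over all of them, threshold 0.05. The fit was tested on simulated data. Reads per member are RPKM times span over the step, and 2 steps may be 1 read pair. Exon lengths are unions of protein-coding exons in GENCODE M21, and spans, chromosomes and promoters are from RefSeq (GRCm38.p6, all 46 members matched for span). Alternatives changed the pseudocount, filter, scaling or trend, added a replicate block, summed repeated rows, or left out each library. Named in full were Psma8, Psme4, Psma7, the other activators, the catalytic subunits, Psmd10, Psmd14, the called member per role and direction with the largest change, and of the pathway list the 4 called genes per direction with the smallest p. Some pathway genes are not reported here by name. The members and lists were chosen with earlier results of these data known.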

Additional observations from a re-analysis of the deposited data

How the results depend on the processing

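For the members, 10 were higher and 13 lower as deposited. The counts were 3 and 9 with the filter at 5 RPKM (22 members tested, so fewer could be called), 21 and 5 with an equal RPKM sum, 5 and 21 with an equal median, and 8 and 14 with quantile normalization. The median log2 fold change was -0.039 without a filter, 0.26 with an equal sum, where it reversed, and -0.30 with an equal median. With each library left out in turn, 4 to 10 members were higher and 6 to 15 lower. A fit on 1 library of a group assumes that it varies like the other group. Pathway genes higher numbered 9 with the filter at 5 RPKM, and lower ones 5 without a filter and 2 with an equal sum. With a library left out, 13 to 22 were higher and 2 to 10 lower. With the replicate number as a block, 10 members were higher and 12 lower, and 18 pathway genes were higher and 4 lower. Among the tested members and the pathway genes named by rule, the block ended the calls of Psma6 (adjusted p = 0.067) and Ubb (0.072). Libraries with the same number had deviations correlated at r = 0.11 over genes, and they share only a number. At a pseudocount of 0.1 the log2 ratio changes were -0.82 for Psme4 to Psme3, -1.94 for Psme4 to Psme1 and 0.92 for Psmb10 to Psmb7. Where no construction is named, the cause was not tested.

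Log2 fold changes that reversed with an equal RPKM sum were Psma4 0.29, Psma6 0.087, Psmb1 0.11, Psmb4 0.17, Psmb7 0.11, Psmc1 0.31, Psmc4 0.25, Psmc5 0.021, Psmd13 0.25, Psmd2 0.37, Psmd3 0.36, Psmd6 0.26, Psmf1 0.070, Psmg1 0.051 and Psmg3 0.29. With an equal median they were Psma1 -0.11, Psma2 -0.015, Psmb3 -0.16 and Psmd7 -0.025. With quantile normalization they were Psma2 -0.10, Psmb3 -0.29, Psmb4 0.63, Psmc4 0.045, Psmd13 0.13, Psmd2 0.41, Psmd3 0.12 and Psmd6 0.11. With each library left out in turn, 5 members that were not called as deposited changed sign. Psmb3 ran from -0.035 to 0.091, Psmc1 from -0.12 to 0.10, Psmd2 from -0.049 to 0.0014, Psmd3 from -0.035 to 0.00031 and Psmg3 from -0.21 to 0.10. Low read numbers limit Psmb11, Psme1, Psme2, Psmb10 and Psmd10 most among the members described.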
